A study of Mus musculus with 30 samples.

Results

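Muscle next to the neuromuscular junctions was compared between control mice of 26 and 15 weeks of age. The comparison rests on 7 of the 30 RNA-seq libraries of the series, chosen by the genotype, region and age in their labels: 4 control perisynaptic libraries at 26 weeks and 3 at 15 weeks, each from a separate male mouse. Every mouse of the study carried BACfxAR121, a floxed human transgene with an expanded CAG repeat, and no group lacked it. In the control mice HSA-Cre;BACfxAR121, Cre recombinase made from the human skeletal actin promoter removes the transgene from skeletal muscle, so these animals are muscle-rescued littermates and not wild-type mice. The transgene stays in tissues without Cre, motor neurons among them. SBMA mice had the transgene without Cre and model spinal and bulbar muscular atrophy, a disease of motor neurons and muscle. No drug or other treatment is given in the labels, and the mouse strain is not given in the sources used here. From each diaphragm, the main muscle of breathing, a perisynaptic piece with the junctions and an extrasynaptic piece without them were sequenced. Set beside the 7 libraries were the extrasynaptic libraries of the same control animals (4 at 26 weeks and 3 at 15 weeks) and the SBMA perisynaptic libraries (4 at each age).

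Muscle fibres keep their large protein mass in order with chaperones. Heat shock proteins of the cytosol, switched on by the factor HSF1, fold and rescue soluble proteins, and the unfolded protein response raises the chaperones and disulfide isomerases of the endoplasmic reticulum when folding there falls behind. Fibres are also typed by their myosin heavy chain: Myh7 marks slow fibres, Myh2 and Myh1 the intermediate fast types, and Myh4 the fastest, glycolytic type, which is a minor type in the mouse diaphragm. A few nuclei beneath each junction transcribe the acetylcholine receptor and its partners far more strongly than the other nuclei of the fibre.

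Chaperone genes were among those with the smallest p-values and higher levels at 26 weeks, so 5 promoters of the chaperone lists are shown, picked for a match to a stress element. Each is the 250 bases before the start of the gene on its own strand, from RefSeq on GRCm38.p6. Capitals mark the endoplasmic reticulum stress element in the first 4 promoters and the heat shock element in the last, searched on both strands. The stress element was searched as CCAAT and CCACG with any 9 bases (N) between them, and the heat shock element as GAA, TTC and GAA with any 2 bases between neighbours. Where capitals run in reverse complement, the match is on the other strand, and in the Hspe1 promoter 2 matches on opposite strands overlap. Hspa5 is at chr2:34771840-34772089 on the plus strand, Hsp90b1 at chr10:86705445-86705694 on the minus strand, Creld2 at chr15:88819396-88819645 on the plus strand, Pdia6 at chr12:17266339-17266588 on the plus strand and Hspe1 at chr1:55087898-55088147 on the plus strand.
Hspa5: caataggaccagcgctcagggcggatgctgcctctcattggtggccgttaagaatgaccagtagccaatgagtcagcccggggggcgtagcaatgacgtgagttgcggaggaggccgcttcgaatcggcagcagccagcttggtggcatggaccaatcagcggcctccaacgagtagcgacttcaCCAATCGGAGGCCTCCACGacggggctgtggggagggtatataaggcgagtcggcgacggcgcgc
Hsp90b1: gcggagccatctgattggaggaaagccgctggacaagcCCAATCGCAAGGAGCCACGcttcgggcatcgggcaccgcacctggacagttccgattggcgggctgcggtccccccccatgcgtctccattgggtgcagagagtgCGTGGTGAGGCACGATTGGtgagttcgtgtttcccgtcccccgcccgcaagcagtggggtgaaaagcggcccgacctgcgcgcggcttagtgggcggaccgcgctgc
Creld2: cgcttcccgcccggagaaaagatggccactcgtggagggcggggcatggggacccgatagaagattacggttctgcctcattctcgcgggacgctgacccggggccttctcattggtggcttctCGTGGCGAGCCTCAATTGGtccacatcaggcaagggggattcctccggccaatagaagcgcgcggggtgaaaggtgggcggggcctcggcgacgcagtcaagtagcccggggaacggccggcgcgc
Pdia6: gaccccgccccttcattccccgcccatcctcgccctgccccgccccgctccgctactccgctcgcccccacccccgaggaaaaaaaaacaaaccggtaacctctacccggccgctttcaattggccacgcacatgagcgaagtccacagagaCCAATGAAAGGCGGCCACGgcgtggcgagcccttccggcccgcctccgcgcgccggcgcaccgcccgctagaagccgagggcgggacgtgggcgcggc
Hspe1: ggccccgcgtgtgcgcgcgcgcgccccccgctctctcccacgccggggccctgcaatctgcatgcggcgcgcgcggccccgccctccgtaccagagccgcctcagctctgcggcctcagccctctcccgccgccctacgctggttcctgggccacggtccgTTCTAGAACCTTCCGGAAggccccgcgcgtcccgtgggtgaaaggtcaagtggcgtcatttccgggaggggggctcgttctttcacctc
Of the 25 genes of the unfolded protein response list, 22 were in the promoter table, and 8 of them (36.4%) held the first element, against 35 of all 27025 genes in the table (0.130%). The heat shock element was found in 2 of 14 genes of the heat shock list that were in the table (14.3%), against 0.514% of all genes. These 2 genes, Hspe1 and Hspd1, are neighbours on opposite strands whose windows overlap, at chr1:55087898-55088147 and chr1:55087933-55088182, so the same stretch is counted for both. The windows of Sdf2l1, Pdia4 and Dnaja1, whose values are described below, hold neither string. These shares describe lists named for the stress responses, and a link of the elements to age was not tested.

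The 7 libraries held 16280873 to 29701993 counts. They were muscle by their markers: Acta1, the skeletal actin, stood at 22857 to 28767 CPM (counts scaled to library size) at 26 weeks and 24394 to 28819 CPM at 15 weeks, and the junction gene Chrne averaged 24.9 CPM at 26 weeks and 25.6 CPM at 15 weeks, against 0.506 CPM at 26 weeks and 0.373 CPM at 15 weeks in the extrasynaptic pieces of the same animals. One library stood apart from the others: the second replicate at 26 weeks had Pearson correlations across genes of 0.958 to 0.973 with the other 6, which each reached at least 0.985 with another library. No pair of libraries agreed within sampling noise. The library names place replicates 1 and 2 at 26 weeks in one run of consecutive numbers, replicates 3 and 4 in another, and the 15-week animals in further runs. Every run held animals of 1 age, so age and run cannot be told apart. Counts of Gm42418, an annotated locus that overlaps ribosomal RNA sequence, took 3.02% ± 1.53 of the total at 26 weeks and 1.16% ± 0.143 at 15 weeks (SD, n = 4 and 3). Genes of rRNA biotype, those of mitochondrial rRNA included, took 1.10% ± 0.0546 at 26 weeks and 0.695% ± 0.181 at 15 weeks. The groups did not overlap in either share (exact permutation test, p = 0.0571, the smallest p that 4 against 3 libraries can give); the part of these shares in the results below was not tested.

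No gene reached an adjusted p under 0.05 between 26 and 15 weeks in control perisynaptic muscle, among 15735 genes tested with edgeR's quasi-likelihood test and Benjamini-Hochberg adjustment (0%). At an unadjusted p under 0.05 there were 891 genes (5.66%), 460 higher (2.92%) and 431 lower (2.74%) at 26 weeks. The smallest adjusted p was 0.278. Fitted without the SBMA libraries, 520 of 15058 genes had an unadjusted p under 0.05, and the smallest adjusted p was 0.9997. The Wald test of DESeq2 on the same counts called 40 genes, 26 higher and 14 lower at 26 weeks. Of these 40, 11 belong to the lists of heat shock or unfolded protein response genes, which hold 18 and 25 of the 15735 genes tested. The groups did not overlap for 398 genes with every 26-week library above (2.53%) and 406 with every 26-week library below (2.58%). The median log2 fold change over all genes tested was -0.01, and 47.5% of them were above 0. When single libraries were left out, the medians of 35 of the 40 gene lists examined moved by over 1.5 times and 20 changed sign. The lists of heat shock, unfolded protein response, adipocyte, senescence and inflammation, and developmental myosin genes moved by less. These list medians were examined after the data were seen.

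**Figure D1:**
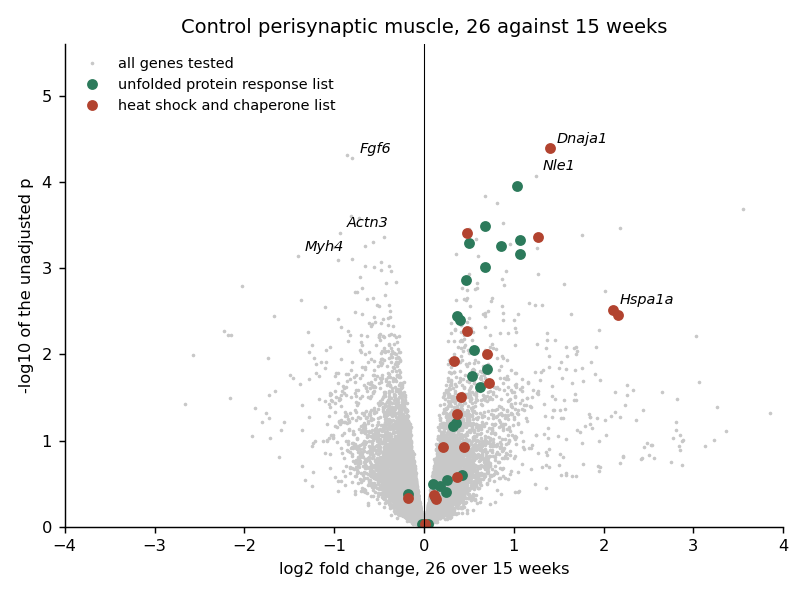
Log2 fold change of 26 over 15 weeks in control perisynaptic muscle (horizontal axis) against the unadjusted p of edgeR's quasi-likelihood test as -log10 (vertical axis), 1 point per gene, with 1 gene outside the horizontal range. Genes of the heat shock list (red) and the unfolded protein response list (green) lie mostly to the right of 0, with Dnaja1 among the smallest p-values, while Fgf6, Actn3 and Myh4 lie to the left.

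Dnaja1, an Hsp40 co-chaperone that hands client proteins to Hsp70, had the smallest p of all genes. The gene lies at chr4:40722150-40737149 of GRCm38 on the plus strand, in GENCODE vM21. Its level was 27.1, 18.5, 39.4 and 40.2 CPM in the 4 libraries at 26 weeks, against 9.69, 13.9 and 12.01 CPM in the 3 at 15 weeks, a log2 fold change of 1.40 ± 0.25 (SE; edgeR adjusted p = 0.278). Every 26-week library lay above every 15-week library, with replicates 3 and 4 the highest. Hsp90aa1, the inducible cytosolic Hsp90, had the same order of libraries at 26 weeks, with 31.8, 21.4, 55.9 and 62.95 CPM at 26 weeks and 16.1, 17.9 and 19.8 CPM at 15 weeks (log2 fold change 1.26 ± 0.28, adjusted p = 0.328). Hspe1, the mitochondrial co-chaperonin whose promoter is shown above, had 27.2, 30.9, 26.7 and 31.9 CPM at 26 weeks and 20.5, 19.7 and 22.7 CPM at 15 weeks (log2 fold change 0.48 ± 0.11, adjusted p = 0.328). Here the 26-week libraries lay close together, and replicates 3 and 4 did not stand out. Hspa1a, the stress-inducible Hsp70, showed the widest spread: 15.5, 8.93, 47.2 and 54.2 CPM at 26 weeks and 8.19, 5.92 and 8.03 CPM at 15 weeks (log2 fold change 2.10 ± 0.60, adjusted p = 0.592). Its near-identical neighbour Hspa1b had a log2 fold change of 2.16 ± 0.63, with overlap, and reads of these copies may have been split between them. The small heat shock protein Hspb8 had 363 ± 30.5 CPM at 26 weeks and 312 ± 31.6 CPM at 15 weeks (SD, n = 4 and 3), and its groups did not overlap either. Hspa1a, Hspa1b and Hspb8 were named after their values were seen.

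Of the 18 heat shock and chaperone genes tested, none was called. A log2 fold change above 0 was found in 17, against 47.5% of all genes tested. At an unadjusted p under 0.05, 11 were higher at 26 weeks, against 2.92% of all genes. In 5, every 26-week library lay above every 15-week library, against 2.53% of all genes. The list's median log2 fold change was 0.43, beside -0.01 over all genes tested. The summed level of the list was 5145 to 7277 CPM at 26 weeks and 4350.3 to 5658 CPM at 15 weeks, so the sums overlapped. The lists were chosen with earlier results of these data known, and their members were measured in the same libraries. Counts of list members throughout describe the lists and are no test of them.

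Chaperones of the endoplasmic reticulum were placed in the same way. Sdf2l1, which assists the Hsp70 of this compartment, had 11.5, 10.4, 18.2 and 17.9 CPM at 26 weeks, against 6.74, 6.58 and 7.96 CPM at 15 weeks (log2 fold change 1.04 ± 0.20, edgeR adjusted p = 0.328). Pdia4, a disulfide isomerase, had 42.6, 37.6, 80.7 and 91.6 CPM at 26 weeks and 30.6, 28.7 and 30.8 CPM at 15 weeks (log2 fold change 1.07 ± 0.24, adjusted p = 0.328). Hsp90b1, the Hsp90 of the reticulum, had 299.6, 292, 405 and 475 CPM at 26 weeks and 227, 224 and 238 CPM at 15 weeks (log2 fold change 0.68 ± 0.15, adjusted p = 0.328). In all 3 genes the groups did not overlap, replicates 3 and 4 were the highest, and the 15-week libraries lay within a narrow range. Manf, a secreted stress-response protein, had 75.99 ± 27.2 CPM at 26 weeks and 36.3 ± 9.15 CPM at 15 weeks (SD, n = 4 and 3; log2 fold change 1.07 ± 0.25). Creld2, another stress-induced protein of the reticulum, had 18.4 ± 4.68 CPM at 26 weeks and 10.2 ± 1.68 CPM at 15 weeks (log2 fold change 0.86 ± 0.20). The isomerases Pdia3 and Pdia6, the lectin chaperone Calr and the response's transcription factor Xbp1 had log2 fold changes of 0.50, 0.46, 0.37 and 0.40. Asns, asparagine synthetase, a target of the amino acid branch of the response, had 4.74, 5.63, 4.75 and 4.79 CPM at 26 weeks and 2.45, 3.24 and 3.64 CPM at 15 weeks (log2 fold change 0.68 ± 0.17). These 10 genes are the members of the list whose groups did not overlap; those beyond Sdf2l1, Hsp90b1 and Pdia4 were named after their values were seen.

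Hspa5 (BiP), the central Hsp70 of the reticulum, did not separate the ages, and it was also named after its values were seen. Its level was 410.4, 317, 709 and 837 CPM at 26 weeks and 407, 270.4 and 372 CPM at 15 weeks, a log2 fold change of 0.70 ± 0.26 (edgeR adjusted p = 0.788), and of 0.45 without the fourth 26-week replicate. Replicate 2 at 26 weeks was within the 15-week range, replicate 1 was just above it, and replicates 3 and 4 were well above it. Of the 25 genes of the unfolded protein response list tested, none was called. A log2 fold change above 0 was found in 23, against 47.5% of all genes tested. At an unadjusted p under 0.05, 14 were higher at 26 weeks, against 2.92% of all genes. In 10, every 26-week library lay above every 15-week library, against 2.53% of all genes. The list's median log2 fold change was 0.42.

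**Figure D2:**
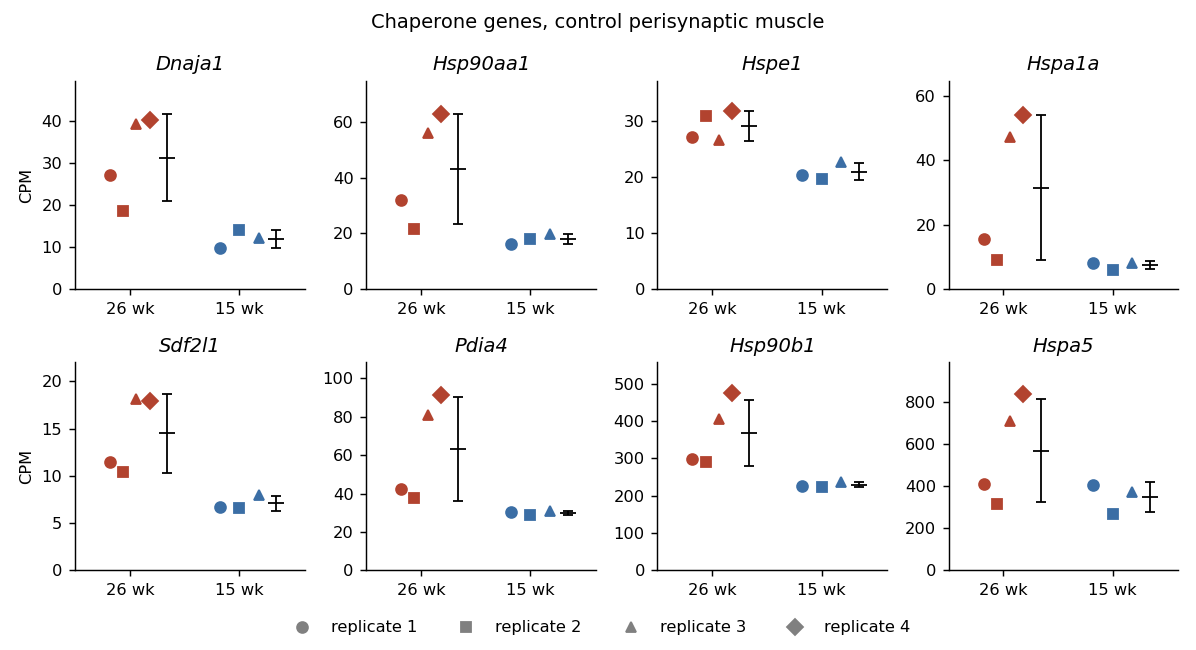
CPM of 8 chaperone genes in each control perisynaptic library, at 26 weeks (red, left) and 15 weeks (blue, right); symbols mark the replicate number, and black bars are the mean and SD (n = 4 and 3). Replicates 3 and 4 at 26 weeks are the highest libraries in every panel but that of Hspe1, and only Hspa5 has a 26-week library within the 15-week range.

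In control animals the run of library numbers moved with these levels. With only replicates 3 and 4 at 26 weeks, 31 genes were called among 15957 tested, 29 higher and 2 lower. Of the 31, 19 belong to the lists of heat shock or unfolded protein response genes, which hold 18 and 25 genes. Called among them were Pdia4 (log2 fold change 1.52 ± 0.11), Hsp90aa1 (1.73), Dnaja1 (1.74) and Hspa5 (1.14). With only replicates 1 and 2 no gene was called, and Pdia4, Hsp90aa1, Dnaja1 and Hspa5 had log2 fold changes of 0.43, 0.59, 0.96 and 0.07. Yet 2834 of 16020 genes had an unadjusted p under 0.05 in that fit, against 1248 with only replicates 3 and 4. With replicates 1 and 2 the smallest edgeR adjusted p was 0.0680, that of Adamts20 (log2 fold change -1.11). The split by run was made after the data were seen and sets a pair of animals against another pair. Replicates 3 and 4 had already been seen as the highest for these 4 genes, so calls from that pair are no test of them. SBMA animals at 26 weeks come from the same runs of numbers, replicates 1 and 2 from the first and 3 and 4 from the second. Their perisynaptic levels of Pdia4 were 33.7 and 42.01 CPM in replicates 1 and 2 and 35.4 and 32.1 CPM in replicates 3 and 4. Those of Hsp90aa1 were 49.9 and 38.4 CPM and 58.4 and 42.7 CPM, so the runs overlapped in both genes. This covers only these genes in a pair of SBMA animals from each run, and the part of the run in the control levels was not tested. The median of the heat shock list was 0.66 with replicates 3 and 4 and 0.18 with replicates 1 and 2, and that of the unfolded protein response list 0.63 and 0.20. The library that stood apart, replicate 2, had the lowest levels of Dnaja1, Hsp90aa1, Sdf2l1, Pdia4 and Hsp90b1 among the 26-week animals: without it 10 genes were called, 9 higher and 1 lower, and 5 of the 10 belong to the lists. These were the same 5 genes, with log2 fold changes of 1.58, 1.49, 1.17, 1.25 and 0.77. Their edgeR adjusted p were 0.0160, 0.0179, 0.0237, 0.0257 and 0.0427. As the library left out was their lowest at 26 weeks, these p-values are no test of the genes. Without the first 15-week replicate no gene was called, and the smallest edgeR adjusted p was 0.984.

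The extrasynaptic pieces of the same animals were sequenced as well. Dnaja1 had 26.8, 17.5, 34.2 and 39.1 CPM there at 26 weeks and 11.8, 14.5 and 12.5 CPM at 15 weeks (log2 fold change 1.19 ± 0.21, edgeR adjusted p = 0.140), and Pdia4 had 32.5, 29.8, 71.3 and 74.7 CPM at 26 weeks and 28.2, 25.9 and 29.1 CPM at 15 weeks (log2 fold change 0.91 ± 0.26, adjusted p = 0.386). As in the perisynaptic pieces, replicates 3 and 4 were the highest. No gene was called in that comparison (0% of 15526 tested; 1036 at an unadjusted p under 0.05, 6.67%; 51 by DESeq2; 18 without the second animal at 26 weeks), and the medians of the heat shock and unfolded protein response lists were 0.44 and 0.32. In SBMA perisynaptic muscle, from other animals, 621 genes were called between 26 and 15 weeks (3.95%), 369 higher (2.35%) and 252 lower (1.6%); with scaling by total counts alone 1178 were higher and 158 lower. Of the heat shock list 2 genes rose there, and the list median was 0.46; of the unfolded protein response list none was called, and the median was 0.14. Hsp90aa1 rose in SBMA muscle, with 49.9, 38.4, 58.4 and 42.7 CPM at 26 weeks and 20.4, 23.7, 18.1 and 21.9 CPM at 15 weeks (log2 fold change 1.17 ± 0.26, adjusted p = 0.0158). Pdia4 had 33.7, 42.01, 35.4 and 32.1 CPM at 26 weeks and 26.7, 29.5, 27.9 and 28.8 CPM at 15 weeks in SBMA muscle (log2 fold change 0.34 ± 0.22, adjusted p = 0.479). The difference between control and SBMA in the change with age passed the test for no member of either list, and neither did the difference between the regions.

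**Figure D3:**
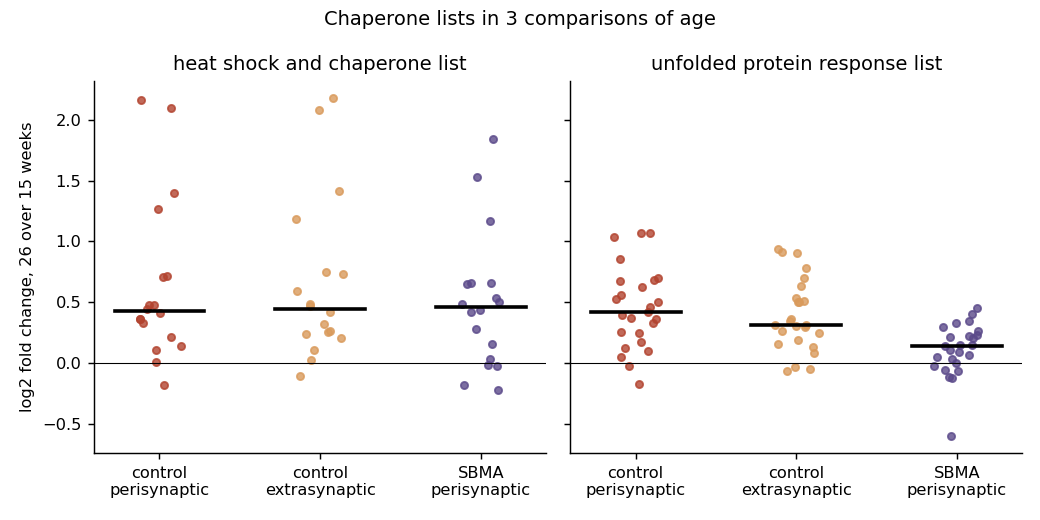
Log2 fold change of 26 over 15 weeks for each gene of the heat shock list (left) and the unfolded protein response list (right) in control perisynaptic, control extrasynaptic and SBMA perisynaptic muscle; black lines are medians. The medians of the heat shock list are 0.43, 0.44 and 0.46, and those of the unfolded protein response list 0.42, 0.32 and 0.14.

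Serpinh1, P4ha1 and Nle1 also had small p-values and higher levels at 26 weeks. With only replicates 3 and 4 at 26 weeks their log2 fold changes were 0.86, 1.30 and 1.58. With only replicates 1 and 2 they were 0.50, 0.42 and 0.83. Serpinh1 (Hsp47), the collagen chaperone of the reticulum, had 277, 234, 329 and 334 CPM at 26 weeks, against 158, 198 and 193 CPM at 15 weeks (log2 fold change 0.68 ± 0.14, edgeR adjusted p = 0.328). P4ha1, a prolyl hydroxylase of collagen, had 75.2, 53.1, 119 and 119.8 CPM at 26 weeks and 42.8, 52.7 and 50.1 CPM at 15 weeks (log2 fold change 0.92 ± 0.23). The groups did not overlap in either gene, though replicate 2 at 26 weeks lay just above the highest 15-week library for P4ha1. The list of matrix assembly and crosslinking genes, which holds both, was evenly placed, with 16 of 32 above 0 and a median of 0.0031. Of 18 collagen genes 17 had a log2 fold change below 0, the median was -0.18, and none was called. Without the second 15-week replicate the collagen median was -0.05 with 13 of 18 below 0, and without the first 26-week replicate it was -0.27. The list median was -0.32 in extrasynaptic pieces and -0.42 in SBMA perisynaptic muscle, again with no call. Col1a1 had 374, 298, 259.9 and 219.6 CPM at 26 weeks and 358, 489.8 and 364 CPM at 15 weeks (log2 fold change -0.49 ± 0.20, adjusted p = 0.836), and its groups overlapped. Col3a1 had a log2 fold change of -0.46 ± 0.21, and of -0.23 without the second 15-week replicate. Nle1, a ribosome assembly factor and Notch regulator, had 14.6, 10.9, 23.7 and 19.6 CPM at 26 weeks and 6.32, 7.24 and 8.37 CPM at 15 weeks (log2 fold change 1.24 ± 0.24, adjusted p = 0.328). Col11a2, a minor fibrillar collagen known from cartilage, had 6.71, 10.5, 6.92 and 8.32 CPM at 26 weeks and 4.41, 4.56 and 4.93 CPM at 15 weeks (log2 fold change 0.81 ± 0.17). The unnamed transcript Gm12940 had 7.77 ± 0.628 CPM at 26 weeks and 4.200 ± 0.649 CPM at 15 weeks (SD, n = 4 and 3; log2 fold change 0.88 ± 0.19). Groups did not overlap in these 3 genes.

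Myh4, Actn3 and Casq1, genes of fast fibres, had every 26-week library below every 15-week library. Myh4, the myosin heavy chain of the fastest fibre type, at chr11:67238029-67260446 on the plus strand, had 1338, 2629, 3455 and 3112 CPM at 26 weeks, against 8508, 8322 and 4109.8 CPM at 15 weeks. The log2 fold change was -1.41 ± 0.33 (edgeR adjusted p = 0.358), and the third 15-week library was the nearest to the 26-week ones. Actn3, the Z-disc actinin of fast fibres, had 571, 482, 498 and 583 CPM at 26 weeks and 1174, 1070.5 and 819.6 CPM at 15 weeks (log2 fold change -0.94 ± 0.21, adjusted p = 0.328). Casq1, the fast-fibre calcium store protein of the reticulum, had 939, 858, 987 and 959 CPM at 26 weeks and 1169, 1112 and 1096 CPM at 15 weeks (log2 fold change -0.27 ± 0.09). The groups did not overlap in these genes, and the same held in the extrasynaptic pieces of the same animals, where the log2 fold changes were -1.37, -0.91 and -0.23 and 2.37% of all genes had every 26-week library below. Pvalb, the calcium buffer of fast fibres, had 1197, 1535, 971 and 1022 CPM at 26 weeks and 1902, 1624 and 1374 CPM at 15 weeks, with overlapping groups (log2 fold change -0.47 ± 0.27).

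The other myosin genes gave no such difference. Myh1 lay at 15355 to 27434 CPM at 26 weeks and 20142 to 23325 CPM at 15 weeks. Myh2 lay at 6454 to 12560.0 CPM at 26 weeks and 8523 to 10257 CPM at 15 weeks, and Myh7 at 1295 to 2536 CPM at 26 weeks and 2067 to 2196 CPM at 15 weeks. Myh1 had a log2 fold change of 0.02 ± 0.19, Myh2 of -0.05 ± 0.21 and slow Myh7 of -0.28 ± 0.20, and their groups overlapped. The sign for Myh1 and Myh2 turned when single libraries were left out, and for Myh1 also with scaling by total counts alone; with only replicates 3 and 4 at 26 weeks Myh7 had a log2 fold change of 0.0041. Of 16 fast-fibre genes none was called, and the median log2 fold change was -0.04. At an unadjusted p under 0.05, 4 were lower, against 2.74% of all genes tested. Of 12 slow-fibre genes none had an unadjusted p under 0.05, and the median was -0.05. With single libraries left out the fast-fibre median ran over -0.13 to 0.01, the ends being without the second 26-week replicate and without the first 15-week replicate, and the slow-fibre median over -0.13 to 0.03. Glycolysis and glycogen genes, which fast fibres use most, had log2 fold changes below 0 in 20 of 24 features tested, with a median of -0.14. At an unadjusted p under 0.05, 3 of them were lower, against 2.74% of all genes tested. Without the first 15-week replicate the median was -0.0021, with 13 of 24 below 0.

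**Figure D4:**
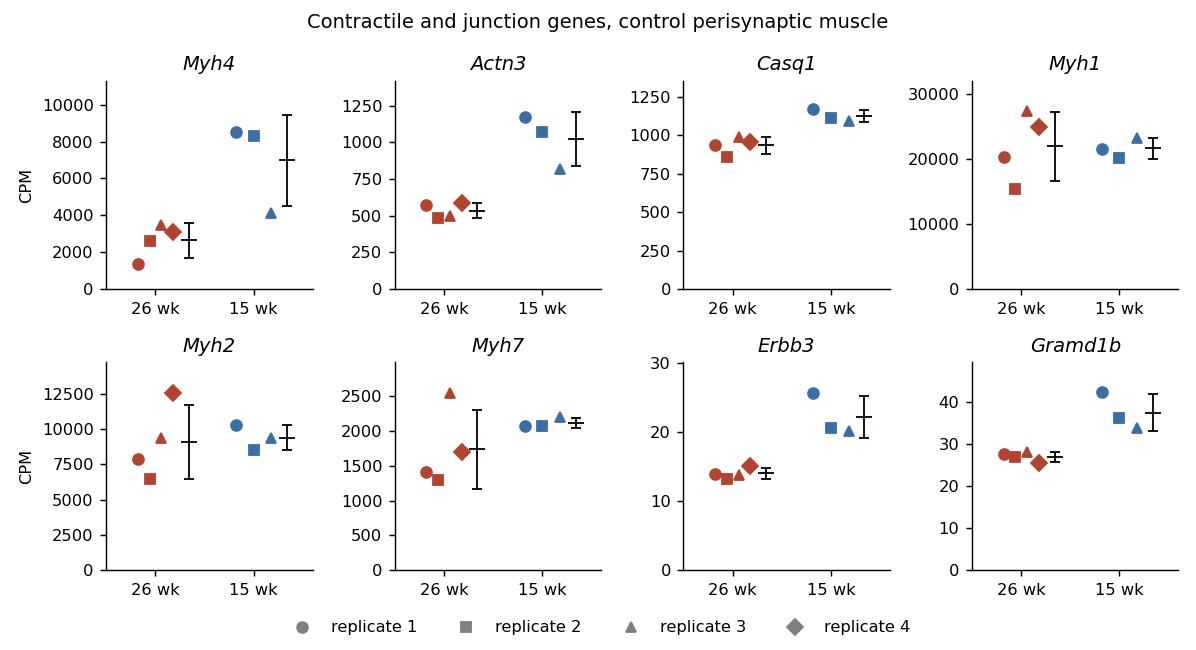
CPM of 6 contractile and calcium genes and of the junction genes Erbb3 and Gramd1b in each control perisynaptic library, at 26 weeks (red, left) and 15 weeks (blue, right); symbols mark the replicate number, black bars the mean and SD (n = 4 and 3). Myh4, Actn3, Casq1, Erbb3 and Gramd1b have every 26-week library below every 15-week library, whereas Myh1, Myh2 and Myh7 overlap.

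Structural and calcium genes had log2 fold changes mostly below 0, with no call. Of 36 sarcomere and Z-disc genes 26 were below 0, and the median log2 fold change was -0.10. Pdlim3, a Z-disc protein that binds actinin, had 168, 124, 139 and 131 CPM at 26 weeks and 175, 204 and 190.3 CPM at 15 weeks (log2 fold change -0.43 ± 0.15), without overlap. Lmod2, which lengthens thin filaments, had 377, 389, 399 and 516 CPM at 26 weeks and 749.9, 502 and 623 CPM at 15 weeks (log2 fold change -0.57 ± 0.21), with overlap. Of 26 calcium release and uptake genes 19 had a log2 fold change below 0 and the median was -0.15. With single libraries left out the medians ran over -0.18 to -0.04 for the sarcomere list and -0.25 to -0.01 for the calcium list, both nearest to 0 without the second 26-week replicate. Jph2, which ties the reticulum to the surface membrane, had 355, 222, 423 and 429 CPM at 26 weeks and 462, 489 and 499 CPM at 15 weeks (log2 fold change -0.44 ± 0.18). Its groups did not overlap, but replicate 2 at 26 weeks was the lowest by far, and without it the log2 fold change was -0.27. Cacng1, a subunit of the voltage sensor, had a log2 fold change of -0.56 ± 0.21, and of -0.34 without the first 15-week replicate.

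At the junction, receptor genes overlapped between the ages and a few partner genes did not. Erbb3, a receptor for neuregulin found on fibres and Schwann cells, had 14.02, 13.3, 13.9 and 15.1 CPM at 26 weeks, against 25.7, 20.6 and 20.2 CPM at 15 weeks (log2 fold change -0.66 ± 0.15, edgeR adjusted p = 0.328). Gramd1b, a cholesterol transfer protein on the junction list, had 27.6, 26.9, 28.2 and 25.5 CPM at 26 weeks and 42.5, 36.2 and 33.9 CPM at 15 weeks (log2 fold change -0.47 ± 0.12). Prkar1a, a regulatory subunit of protein kinase A enriched at junctions, had 491, 327, 431 and 392 CPM at 26 weeks and 509, 501 and 605 CPM at 15 weeks (log2 fold change -0.39 ± 0.13). Every 26-week library lay below every 15-week library in these genes. For Prkar1a replicate 2 was the lowest, and in the extrasynaptic pieces, where its level was 123 to 179.6 CPM at 26 weeks and 154 to 159 CPM at 15 weeks, the groups overlapped. Etv5, the ETS factor of junction nuclei, had 29.7, 31.6, 26.7 and 27.7 CPM at 26 weeks and 37.3, 33.1 and 37.3 CPM at 15 weeks (log2 fold change -0.31 ± 0.12), again with no overlap; it was named after its values were seen.

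The receptor subunits Chrna1 and Chrne had log2 fold changes of -0.29 ± 0.16 and -0.04 ± 0.20, Ache, the esterase that ends transmission, of -0.42 ± 0.21, and Musk, the kinase that organises the junction, of -0.06 ± 0.33. All of these overlapped between the ages, and the sign for Chrne and Musk turned when single libraries were left out. Of 28 junction genes tested none was called, and 26 had a log2 fold change below 0, with a median of -0.12. At an unadjusted p under 0.05, 4 were lower at 26 weeks, against 2.74% of all genes tested. With single libraries left out 18 to 25 of the 28 were below 0, the 18 without the third 26-week replicate, and the median was -0.19 without the second. Genes that muscle induces on loss of its nerve gave no call among 21 tested (median -0.11; -0.0025 without the second 26-week replicate and -0.06 without the first 15-week replicate). Of them, Cdkn1a, a cell cycle inhibitor, had 38.6, 25.5, 32.9 and 37.99 CPM at 26 weeks and 57.1, 44.97 and 61.9 CPM at 15 weeks (log2 fold change -0.69 ± 0.20, adjusted p = 0.596), every 26-week library below every 15-week library. In a bulk piece of tissue, fewer cells or nuclei of a kind and less RNA in each cannot be told apart.

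Among signalling genes with lower levels at 26 weeks, Fgf6, a growth factor made in muscle, had 5.98, 7.64, 5.03 and 5.996 CPM at 26 weeks and 10.6, 10.3 and 11.1 CPM at 15 weeks. Its log2 fold change was -0.80 ± 0.14 (edgeR adjusted p = 0.278). Without replicate 2, its highest library at 26 weeks, it was called (edgeR adjusted p = 0.0179). As the library left out was the nearest to the 15-week ones, this p-value is no test of the gene. Adamts20, a secreted metalloprotease, had 4.54, 3.56, 6.11 and 5.28 CPM at 26 weeks and 9.06, 9.502 and 7.96 CPM at 15 weeks (log2 fold change -0.86 ± 0.15, adjusted p = 0.278). Atp1b2, a beta subunit of the sodium pump, had 15.5, 17.1, 20.5 and 17.99 CPM at 26 weeks and 31.8, 37.5 and 23.8 CPM at 15 weeks (log2 fold change -0.81 ± 0.17, adjusted p = 0.328). In these genes every 26-week library was below every 15-week library. Mapk4, an atypical kinase, had 3.84 ± 0.614 CPM at 26 weeks and 6.35 ± 0.400 CPM at 15 weeks, and Patz1, a zinc finger transcription factor, 14.6 ± 0.613 CPM at 26 weeks and 19.8 ± 1.68 CPM at 15 weeks (SD, n = 4 and 3); their log2 fold changes were -0.72 ± 0.15 and -0.45 ± 0.10. Igf2, a fetal growth factor, had a log2 fold change of -0.39 ± 0.15, with overlapping groups. Il15, a cytokine secreted by muscle, had 14.1, 12.9, 12.2 and 11.1 CPM at 26 weeks and 8.27, 10.1 and 10.9 CPM at 15 weeks (0.37 ± 0.17), and the neurotrophin Ntf5 4.78, 4.65, 4.75 and 4.65 CPM at 26 weeks and 3.24, 3.97 and 3.24 CPM at 15 weeks (0.43 ± 0.19); both had every 26-week library above every 15-week library. Of 20 growth factor and myokine genes tested none was called and the median was -0.07, and -0.16 without the first 15-week replicate.

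Medians of lists of organelle genes moved when single libraries were left out. Of 37 complex I subunit genes 36 had a log2 fold change above 0 with a median of 0.22, and of 57 cytosolic ribosomal protein genes 52 with a median of 0.14; none was called. Without replicate 2 at 26 weeks, 24 of 37 complex I genes were above 0 with a median of 0.02, and 18 of 56 ribosomal protein genes with a median of -0.05. Without the second 15-week replicate these medians were 0.12 and 0.09, and without single 26-week replicates other than the second they reached 0.32 and 0.24. Many ribosomal protein genes have processed copies elsewhere in the genome, so their counts are uncertain. The mitochondrial gene mt-Nd6, the only protein gene on its strand of the mitochondrial genome, had 2104, 3045, 2263 and 2229 CPM at 26 weeks and 945, 1319 and 1692 CPM at 15 weeks (log2 fold change 0.87 ± 0.24, edgeR adjusted p = 0.553). The groups did not overlap in perisynaptic pieces, while in the extrasynaptic pieces they overlapped and the log2 fold change was -0.34 ± 0.21. Whether counting used the strand is not given in the sources used here, and without it reads of the opposite mitochondrial strand cannot be told apart from those of mt-Nd6.

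Fat marker genes were high in 3 of the 4 animals at 26 weeks. Adipoq, the adipocyte hormone adiponectin, had 16.3, 17.6, 10.3 and 1.34 CPM at 26 weeks and 0.873, 1.95 and 2.77 CPM at 15 weeks, and Plin1, the coat protein of fat droplets, 7.91, 7.64, 7.48 and 0.716 CPM at 26 weeks and 0.541, 1.18 and 0.742 CPM at 15 weeks. Replicates 1, 2 and 3 at 26 weeks were high and replicate 4 was within or next to the 15-week range. The log2 fold changes were 2.65 ± 1.09 and 2.81 ± 1.20 (edgeR adjusted p = 0.845 and 0.845). The fat synthesis genes Scd1 and Fasn showed the same libraries high, with log2 fold changes of 1.67 ± 0.55 (1.06 without the second 26-week replicate) and 1.86 ± 0.65; Fasn had 101, 153, 72.9 and 18.9 CPM at 26 weeks and 20.96, 31.1 and 18.97 CPM at 15 weeks. Of 15 adipocyte genes tested none was called, and the median was 1.40. At an unadjusted p under 0.05, 5 were higher, against 2.92% of all genes tested. The summed level of the list was 1426 to 1727 CPM at 26 weeks and 1369.8 to 1844 CPM at 15 weeks, so the sums overlapped. In the extrasynaptic pieces of the same animals the median was -0.39, and Adipoq had 16.9, 12.3, 41.9 and 26.4 CPM at 26 weeks and 60.9, 13.7 and 38.4 CPM at 15 weeks. The perisynaptic library with the lowest fat gene levels at 26 weeks, replicate 4, was among those with the highest chaperone levels. Replicate 3, also among those with the highest chaperone levels, was high in the fat genes. A link between fat and chaperone levels was not tested.

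The lists of antigen presentation, interferon response, macrophage and lymphocyte genes had medians above 0, with no call. All 17 antigen presentation genes tested and 23 of 24 interferon response genes had a log2 fold change above 0, with medians of 0.26 and 0.24. The medians were 0.15 and 0.14 without the second 26-week replicate and 0.13 and 0.12 without the first 15-week replicate, and the interferon median was 0.41 without the second 15-week replicate. Cd209a, a lectin of dendritic cells, had 3.94, 3.098, 2.74 and 1.79 CPM at 26 weeks and 1.33, 1.08 and 1.48 CPM at 15 weeks (log2 fold change 1.17 ± 0.32, edgeR adjusted p = 0.549). Ccl2, a chemokine that draws monocytes, had 4.02, 3.305, 2.25 and 3.94 CPM at 26 weeks and 0.832, 1.84 and 1.69 CPM at 15 weeks (log2 fold change 1.22 ± 0.49). The T cell gene Cd2 had 1.29, 1.81, 1.97 and 1.83 CPM at 26 weeks and 0.956, 1.18 and 0.472 CPM at 15 weeks (0.92 ± 0.35). In all 3 genes every 26-week library was above every 15-week library, at levels of a few CPM. The 20 macrophage genes had a median of 0.20 and the 13 lymphocyte genes tested 0.18. Of the lymphocyte genes 7 were above 0 and 6 below. The summed level of the lymphocyte list was 15.1 to 47.5 CPM at 26 weeks and 23.7 to 72.2 CPM at 15 weeks. With single libraries left out the macrophage and lymphocyte medians ran over 0.06 to 0.33 and -0.88 to 0.66, so the lymphocyte median changed sign. The 7 erythroid and granulocyte genes tested had a median of -0.10, with 6 below 0.

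The remaining cell type lists had medians between -0.23 in mesothelial genes and 0.34 in mast cell genes, and no member of any was called. With single libraries left out these medians ran over -0.38 to -0.05 and 0.14 to 0.54. Schwann cell genes had a median of -0.14, which ran over -0.43 to 0.01. Kit, the growth factor receptor of mast cells, had a log2 fold change of 0.42 ± 0.18, and Myf5, a satellite cell factor, of 0.44 ± 0.19. Both overlapped, and without the first 15-week replicate these were 0.25 and 0.28. Of the 12 satellite cell genes 7 had a log2 fold change below 0, with a median of -0.01. Top2a, a marker of dividing cells, had 0.763, 1.08, 0.925 and 1.03 CPM at 26 weeks and 1.33, 1.71 and 1.82 CPM at 15 weeks (log2 fold change -0.76 ± 0.35), with every 26-week library below.

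The clock genes Arntl, Dbp and Per2 varied widely within each age. Per2, a clock repressor, had 21.97, 62.9, 44.8 and 73.2 CPM at 26 weeks and 49.2, 10.6 and 25.6 CPM at 15 weeks (log2 fold change 0.83 ± 0.43), while its activator Arntl had 15.4, 4.85, 9.77 and 6.53 CPM at 26 weeks and 10.6, 23.2 and 10.9 CPM at 15 weeks (-0.71 ± 0.34) and the clock output factor Dbp 68.7, 189, 109 and 133 CPM at 26 weeks and 109, 55.5 and 98.7 CPM at 15 weeks (0.51 ± 0.27). The second replicate at 15 weeks had the highest Arntl and the lowest Per2 and Dbp, and all 3 genes overlapped between the ages. Without that library Per2 and Arntl had log2 fold changes of 0.43 and -0.23, and without the second 26-week replicate Dbp had 0.24. No source used here gives the time of day at which tissue was taken.

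The change with age was set against that in SBMA perisynaptic muscle with a test of the difference. For 59 genes the control change minus the SBMA change differed from 0 (edgeR adjusted p under 0.05, 0.375% of 15735), 21 with a positive (0.133%) and 38 with a negative difference (0.241%); with scaling by total counts alone these were 22 and 126. The count was 27 to 121 when single libraries were left out, and the 121 came without the second control replicate at 26 weeks. Since these genes were chosen by the difference, what follows describes them: in 57 of the 59 the absolute change was larger in SBMA muscle, with a median absolute log2 fold change of 0.19 in control and 1.20 in SBMA. The 5 genes with the smallest p had overlapping control groups. AW551984, known only by a sequence-derived symbol, had 4.14, 3.56, 4.02 and 4.47 CPM at 26 weeks and 4.62, 4.42 and 3.91 CPM at 15 weeks in control muscle, and 18.7, 17.8, 19.7 and 22.9 CPM at 26 weeks and 6.07, 6.04, 6.82 and 4.84 CPM at 15 weeks in SBMA muscle (difference -1.83 ± 0.19, adjusted p = 8.82e-04). Nmrk2, a muscle kinase of nicotinamide riboside that feeds NAD synthesis, had 141, 255, 117 and 158 CPM at 26 weeks and 129, 75.7 and 128 CPM at 15 weeks in control muscle, and 11.2, 7.804, 7.11 and 13.7 CPM at 26 weeks and 67.2, 83.5, 64.9 and 39.5 CPM at 15 weeks in SBMA muscle (difference 3.27 ± 0.43, adjusted p = 0.00484). The control groups overlapped, while every 26-week SBMA library was below every 15-week one. Mb, the oxygen store myoglobin, had a log2 fold change of 0.21 in control and -1.43 in SBMA muscle (difference 1.64 ± 0.22, adjusted p = 0.00645). For 2310065F04Rik the changes were -0.06 in control and -3.14 in SBMA muscle (difference 3.08 ± 0.39), and for A930003A15Rik -0.14 and 2.49 (-2.63 ± 0.34).

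Myh4 was lower at 26 weeks in both genotypes, by unequal amounts. In control muscle the log2 fold change was -1.41, and in SBMA muscle, with 99.1, 184, 156 and 209 CPM at 26 weeks and 1939.6, 3771, 3418 and 2675 CPM at 15 weeks, it fell by 4.19 on the log2 scale (difference 2.78 ± 0.47, edgeR adjusted p = 0.0169). Igsf1, an immunoglobulin superfamily membrane protein, had 2.73, 1.65, 2.57 and 3.13 CPM at 26 weeks and 2.25, 2.26 and 2.77 CPM at 15 weeks in control muscle, and 32.9, 24.96, 36.6 and 40.03 CPM at 26 weeks and 11.9, 11.7, 11.2 and 9.64 CPM at 15 weeks in SBMA muscle (difference -1.52 ± 0.27, adjusted p = 0.0174). Mapk4 had log2 fold changes of -0.72 in control and 0.51 in SBMA muscle, with a difference of -1.23 ± 0.21 (adjusted p = 0.0164). Prr32, a gene of little known function, stood at 0.155 to 0.281 CPM at 26 weeks and 0.0696 to 0.208 CPM at 15 weeks in control muscle and at 6.72 to 10.6 CPM at 26 weeks and 0.691 to 1.86 CPM at 15 weeks in SBMA muscle. It had a difference of -1.79 ± 0.70 (adjusted p = 0.451), which did not pass the test.

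**Figure D5:**
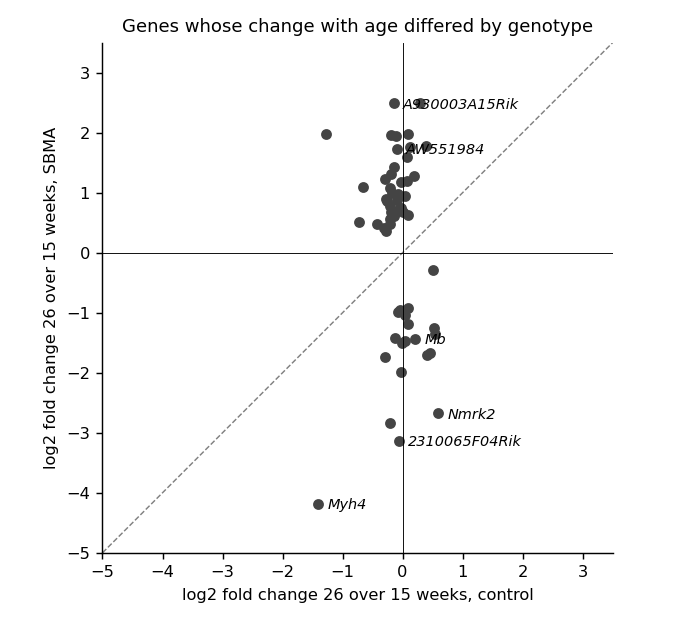
Log2 fold change of 26 over 15 weeks in control (horizontal axis) and SBMA (vertical axis) perisynaptic muscle for the 59 genes whose change differed between the genotypes, chosen by that difference; the dashed line marks equal changes. Most points lie near 0 on the control axis and far from 0 on the SBMA axis, with Myh4 at -1.41 and -4.19.

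The change with age in perisynaptic pieces was also set against that in extrasynaptic pieces of the same animals, with a term for each animal. No gene was called (0% of 16138 tested; 478 at an unadjusted p under 0.05, 2.96%; 9 by DESeq2). The 5 smallest p-values belonged to Gm37194, CT010467.1, Lars2, Mir6236 and Gm15564. Lars2, the mitochondrial leucyl-tRNA synthetase gene, had 571, 511, 1845 and 1047 CPM in perisynaptic pieces at 26 weeks and 328, 371 and 292 CPM at 15 weeks, against 310.0, 233, 279 and 822 CPM at 26 weeks and 1086, 2328 and 1901 CPM at 15 weeks in extrasynaptic pieces (difference 3.61 ± 0.64, unadjusted p = 3.07e-05, adjusted p = 0.140). In perisynaptic pieces every 26-week library was above every 15-week library, and in extrasynaptic pieces every 26-week library was below. Mir6236 and Gm15564 had differences of 3.82 ± 0.68 and 3.80 ± 0.71. The share of Gm42418 moved with these genes: in extrasynaptic pieces it was 0.813% to 2.52% at 26 weeks and 3.36% to 6.203% at 15 weeks. Its part in these differences was not tested.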

How the data were processed

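Total RNA was purified with miRNeasy and made into libraries with the KAPA Stranded mRNA-Seq kit and capture beads, per the labels' protocols. The authors deposited whole-number counts per gene, made with featureCounts on mm10 per the submitters' processing notes; no aligner, annotation release or strand setting was given in the sources used here. Of 33076 gene identifiers, 33064 matched GENCODE vM21 for coordinates. The deposited counts were tested with edgeR 4.0.16 (R 4.3.3, limma 3.58.1): filterByExpr (minimum count 10, minimum total 15), TMM factors, glmQLFit and glmQLFTest over the 15 perisynaptic libraries together, with Benjamini-Hochberg adjustment over all genes tested and a threshold of 0.05. Printed CPM are computed with TMM library sizes, and errors of log2 fold changes are SE. The extrasynaptic libraries were fitted in the same way, and the regions in a model with a term for each animal. The edgeR test between the ages in control perisynaptic muscle was checked on simulated counts. These counts held no difference between runs and no library that stood apart, so the check does not cover such features. Alternatives were DESeq2 1.42.0, other scaling factors, no filter, fewer groups, a replicate block and single libraries left out. Total counts bound the precision. The p-values of the edgeR tests between ages weigh a difference against the spread between animals, estimated over both genotypes. Those of the test between regions weigh it against the spread left after the term for each animal.

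Named genes were the 6 with the smallest p in each direction at a mean of at least 2 CPM, up to 3 members of each of 40 gene lists (804 genes), fixed genes of fibre type, junction, matrix and clock, and the smallest p of the differences. The samples, members and lists were chosen with earlier results of these data known. Replicate numbers, from the labels, were checked for pairing and did not pair the samples. Some items are not reported here.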

Additional observations from a re-analysis of the deposited data

Results flagged for a closer look

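Single libraries stood far from the other 3 of the 26-week control perisynaptic group in 9 of 122 gene, list or library values examined. Many of these values depend on each other, so the count cannot be set against a rate by chance. The measure is the gap to the nearest library divided by the range of the group. The second replicate was the far one for 6 of the 9: Asns (0.945), Sln (0.881), Myf5 (0.954), mt-Nd6 (0.831), the denervation list (0.895) and the endothelial list (0.923). The fourth replicate was the far one for Lmod2 (0.843), Plin1 (0.94) and the senescence and inflammation list (0.845).

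The log2 change with age differed between control and SBMA perisynaptic muscle, by the test of the difference itself in edgeR, for genes named above. Control minus SBMA, it was -1.23 for Mapk4, 2.78 for Myh4, -1.52 for Igsf1, 3.27 for Nmrk2, 1.64 for Mb, -1.83 for AW551984, 3.08 for 2310065F04Rik and -2.63 for A930003A15Rik. Tmod1, which caps thin filaments, had a difference of -0.69, with log2 fold changes of -0.22 in control and 0.47 in SBMA muscle.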

How the results depend on the processing

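Control perisynaptic calls between 26 and 15 weeks numbered 40 by DESeq2, 1 with no filter on low counts (Dnaja1), 31 with only replicates 3 and 4 at 26 weeks, 0 with only replicates 1 and 2, and 0 to 10 when single libraries were left out, the 10 without the second 26-week replicate and 1 (Rbp4) without the fourth. They stayed at 0 with relative log expression factors, total counts alone, only the groups compared and the replicate block. With only the groups compared, the smallest edgeR adjusted p was 0.9997, and without the first 15-week replicate it was 0.984. With only replicates 1 and 2 at 26 weeks, 2834 of 16020 genes had an unadjusted p under 0.05. Extrasynaptic calls were 51 by DESeq2, 11 with total counts alone, 33 with no filter and 0 to 18 with libraries left out, the 18 without 26-week replicate 2. SBMA calls were 1075 by DESeq2, 1336 with total counts alone, 987 with only the groups compared and 344 to 536 with libraries left out, the lowest 344, 384, 364, 366 and 383 without 26-week replicates 1 and 2 and 15-week replicates 1, 2 and 4. Differences between genotypes numbered 190 by DESeq2, 148 with total counts alone and 27 to 121 with libraries left out: 121 without control 26-week replicate 2, 28, 27 and 32 without control 15-week replicates 1, 2 and 3, 39 and 36 without SBMA 26-week replicates 1 and 2, and 37 without SBMA 15-week replicate 2 or 4. Differences between regions numbered 9 by DESeq2, 86 with no filter, 5 with only the control libraries, and 0 to 3 with libraries left out, the 3 without the fourth 26-week animal. The cause was not tested. Total counts alone moved the median of all genes to 0.16 in SBMA muscle and -0.18 for the genotypes.

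The replicate numbers do not pair the animals (correlations of deviations between the ages -0.211, -0.0527 and -0.00654). With the replicate block, 23 genes differed between genotypes, and Myh1 (-0.037) and Chrne (0.0041) changed sign.

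Of 1154 recomputed single-gene values for 77 genes, 1083 kept their direction and side of the threshold, 49 passed it and 22, of 6 genes, changed direction. Without single libraries the log2 fold change was -0.10 to 0.16 for Myh1, -0.25 to 0.082 for Myh2, -0.28 to 0.078 for Chrne, -0.38 to 0.22 for Musk and -0.034 to 0.23 for Igsf1. Leaving out single libraries moved the log2 fold change by over 1.5 times for 23 of the 77 genes, 5 of them with a change of sign, and the medians of 35 of the 40 lists. Total counts alone gave -0.0033 for Myh1. Replicates 1 and 2 alone gave -0.27 for Myh1, 0.28 for Chrne and -0.094 for Igsf1, and replicates 3 and 4 alone 0.22 for Myh2, 0.0041 for Myh7 and 0.41 for Musk. List medians and both runs were examined after the data were seen. Genes of a few CPM rest on few counts in each library, which limits what these depths show.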

Other observations

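Further gene lists of the comparison of 26 with 15 weeks in control perisynaptic muscle held no call. The 17 genes of senescence and inflammation tested had a median log2 fold change of 0.35. At an unadjusted p under 0.05, 3 were higher and 1 was lower at 26 weeks, against 2.92% and 2.74% of all genes tested. Cxcl1, a chemokine for neutrophils, had 0.522, 0.620, 1.65 and 1.07 CPM at 26 weeks and 0.499, 0.383 and 0.135 CPM at 15 weeks (log2 fold change 1.42 ± 0.60), near the limit of what these depths resolve. Nampt, the enzyme that salvages nicotinamide for NAD, had 197, 139.6, 217 and 220.4 CPM at 26 weeks and 242, 240.2 and 239 CPM at 15 weeks (log2 fold change -0.31 ± 0.14, and -0.19 without the second 26-week replicate). Every 26-week library was below every 15-week library for Nampt, and the second 26-week library was the lowest. Smox, spermine oxidase, which breaks down a polyamine, had 13.3, 15.03, 11.6 and 10.5 CPM at 26 weeks and 15.6, 17.1 and 16.1 CPM at 15 weeks (log2 fold change -0.37 ± 0.12), and Btg2, an early-response gene that slows division, had 44.9, 40.1, 54.8 and 67.3 CPM at 26 weeks and 74.4, 72.98 and 82.5 CPM at 15 weeks (log2 fold change -0.56 ± 0.32); neither overlapped.

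Sln, sarcolipin, which uncouples the calcium pump, had 419, 662, 392 and 425 CPM at 26 weeks and 374, 298 and 421 CPM at 15 weeks (log2 fold change 0.38 ± 0.18), with overlap; without the second 26-week replicate it was 0.18. The lists of atrophy genes and of mitochondrially encoded genes had medians of -0.13 and 0.11. The lists of fatty acid oxidation genes and of circadian clock genes had medians of -0.0043 and 0.07. With single libraries left out, the medians of these 4 lists changed sign: they ran over -0.22 to 0.03, -0.03 to 0.19, -0.05 to 0.06 and -0.09 to 0.15.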
